A study of Mus musculus with 2 samples.

Results

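The GTPases of immunity-associated proteins (GIMAP) form a gene family on mouse chromosome 6, and the 8 members *Gimap1*, *Gimap3*, *Gimap4*, *Gimap5*, *Gimap6*, *Gimap7*, *Gimap8* and *Gimap9* were taken by symbol from the expression tables of control and Eomes-overexpressing OT-I cells. All 8 were listed in both tables, among 14732 gene symbols listed in at least 1 of them. OT-I cells are CD8+ T cells that carry a transgenic receptor for the OVA peptide SIINFEKL, here from the spleen and lymph nodes of C57BL/6 mice of 6 to 8 weeks. After activation for 24 h with 2.5 ng/mL of peptide and 10 U/mL of IL-2, the cells were infected with a retrovirus that encodes Eomes followed by human CD2, or with the same vector without Eomes (control). Human CD2+ cells of both cultures were sorted 48 h later, plated at 40000 cells per well and stimulated again in the same way, and RNA was taken after 3 days. Both groups therefore share the transgenic receptor, the vector with human CD2 and the repeated peptide exposure, and the added *Eomes* is driven by the vector. The number of mice behind each culture is not given in the sources used here. A single library was sequenced per group, so no difference below has a replicate check and none has a p-value.

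GIMAP proteins are GTP-binding proteins found mainly in lymphocytes, where they sit on the membranes of endosomes, lysosomes, mitochondria or the Golgi apparatus, or in the cytosol. Loss of *Gimap5* or *Gimap1* in rodents depletes mature T cells from the periphery, and the family is best known for its part in lymphocyte survival. Resting T cells carry high levels of several GIMAP transcripts, and levels of many of them decrease after activation.

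In these activated cells the family was well expressed, and 0 of 8 members differed by 1.5-fold or more between the libraries, against 7.65% of all expressed genes. *Gimap4* and *Gimap3*, the most abundant members, were lower in Eomes-overexpressing OT-I cells, with RPKM differences of -22.8% and -23.2%, *Gimap5*, *Gimap9* and *Gimap1* were lower with differences of -17.6%, -16.2% and -11.1%, and *Gimap6*, *Gimap7* and *Gimap8* had nearly the same value in both libraries. In bulk RNA, fewer cells with a transcript and less of it per cell cannot be told apart.

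The vector's target was high in the library labelled for it, with *Eomes* at an RPKM of 2.47 in the control library and 129.6 in the Eomes library. RPKM scales the reads of a gene to transcript length and to the reads of the library, and the same values are called FPKM in the deposited tables. Tables listed 14130 and 13985 symbols, with a median RPKM of 5.71 and 5.84, and the RPKM values summed to 562244 and 549987. All 11 T cell markers examined were expressed, up to an RPKM of 1195.3 for *Thy1*. *Cd4* was at 0.03 and 0.08. The endothelial gene *Cdh5* was at 0.01 in control and not listed in the Eomes library. Of the other markers of B, myeloid, endothelial and red cells, *Csf1r*, *Lyz2*, *Adgre1*, *Ms4a1*, *Pax5*, *Tek*, *Emcn*, *Vwf*, *Hbb-bs* and *Hbb-bt* were not listed in either table. The summed RPKM in the control and the Eomes library was 3.01 and 1.71 for B cell markers (4 of 6 listed), 4.26 and 6.07 for myeloid markers (5 of 8), 5.12 and 3.5 for endothelial markers (3 of 6) and 0.2 and 0.04 for red cell markers (2 of 4), with a gene listed in 1 table only counted as 0.01 in the other. Past 1.5-fold among expressed ones were *Cd79b*, lower at 2.79 and 1.56, and *Cd68*, higher at 2.68 and 4.59, and *Pecam1* had 5.1 and 3.46. The part of these cells in the GIMAP values was not tested.

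The members are shown first by a stretch of coding sequence that encodes a motif found in all 8 of them. This is the P-loop, or G1 motif, which holds the phosphates of GTP. It spans 8 residues, and the 24 bases that encode it are in capitals below, with 18 bases on each side, 5′ to 3′ on the coding strand. Sequences are from GENCODE vM21 transcripts of mm10. *Gimap8* encodes 3 copies, and each of the other members encodes 1.
Gimap3: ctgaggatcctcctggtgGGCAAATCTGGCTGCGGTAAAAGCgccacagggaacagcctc
Gimap5: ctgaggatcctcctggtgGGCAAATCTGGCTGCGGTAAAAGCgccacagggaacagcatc
Gimap1: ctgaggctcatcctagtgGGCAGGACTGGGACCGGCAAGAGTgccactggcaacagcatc
Gimap4: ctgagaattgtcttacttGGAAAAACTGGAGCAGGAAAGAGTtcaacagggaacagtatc
Gimap6: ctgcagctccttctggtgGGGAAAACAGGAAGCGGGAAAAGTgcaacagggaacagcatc
Gimap7: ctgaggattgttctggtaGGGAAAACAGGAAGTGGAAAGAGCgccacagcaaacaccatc
Gimap9: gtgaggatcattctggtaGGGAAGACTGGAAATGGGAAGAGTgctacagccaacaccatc
Gimap8, first copy: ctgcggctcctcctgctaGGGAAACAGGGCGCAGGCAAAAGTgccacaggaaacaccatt
Gimap8, middle copy: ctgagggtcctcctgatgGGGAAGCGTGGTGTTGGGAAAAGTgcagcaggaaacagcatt
Gimap8, last copy: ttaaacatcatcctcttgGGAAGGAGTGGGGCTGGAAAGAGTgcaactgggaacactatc

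The stretches of *Gimap3* and *Gimap5* were identical over the 24 bases of the P-loop and over 59 of the 60 bases shown. For no other pair were more than 50 of the 60 bases the same, with *Gimap9* and *Gimap7* next (the first copy of *Gimap8* was used). Over the aligned coding sequence, *Gimap3* and *Gimap5* were 90.3% identical (811 of 898 bases), whereas the other 27 pairs ranged from 55.9% to 66.7%. The coding sequence of *Gimap8* was the longest, with 2067 bases, and those of the other members held 876 to 987 bases.

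This likeness bears on how far reads can be assigned to single members. Of all 50-base stretches of the longest protein-coding transcript, 9.83% for *Gimap3* and 9.98% for *Gimap5* also occurred in transcripts of other genes, after setting aside the read-through gene *Gm28053*. With stretches of 100 bases these shares were 2.0% and 2.21%. With *Gm28053* counted, the shares for *Gimap5* were 15.1% at 50 bases and 5.18% at 100 bases, and those for *Gimap3* were unchanged. For *Gimap4*, *Gimap8* and *Gimap9* the share was 0 at both lengths, for *Gimap6* it was 0.064% at 50 bases, and for *Gimap7* 2.62% of the 50-base stretches were shared with *Gm28053* alone. The share for *Gimap1* was 12.8% at 50 bases and 7.10% at 100 bases, and without *Gm28053* it was 2.49% and 0. *Gm28053* is annotated across *Gimap7*, *Gimap1* and *Gimap5* and was not listed in either table. *Gimap1* is also overlapped by the antisense gene *Gimap1os*, and whether strand was used in counting is not given in the sources used here. The values of *Gimap3*, *Gimap5* and *Gimap1* are therefore less certain than those of the other members.

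The cluster spans 123.6 kb of mm10, chr6:48647234-48770851, with 6 genes on the plus and 2 on the minus strand. Its order is *Gimap8*, *Gimap9*, *Gimap4*, *Gimap6*, *Gimap7*, *Gimap1*, *Gimap5* and *Gimap3*, and *Gimap6* and *Gimap3* are on the minus strand.

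The members of highest abundance were *Gimap4* and *Gimap3*. *Gimap4*, which has been linked to T cell death, lies at chr6:48684549-48692060. Its RPKM was 150.45 in the control library and 116.2 in the Eomes library, a log2 ratio (Eomes-overexpressing over control) of -0.37. *Gimap3*, the close paralogue of *Gimap5*, lies at chr6:48764464-48770851 and had an RPKM of 141.5 and 108.7, a log2 ratio of -0.38. These were the lowest log2 ratios of the family on the scale as deposited, whereas with GC centring *Gimap9* was lower than *Gimap3*. *Gimap4* and *Gimap3* ranked close to each other by RPKM among 9925 expressed genes. Their ranks were 595 and 635 in the control library and 783 and 835 in the Eomes library. Expressed genes are those that reached an RPKM of 1 in either library.

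*Gimap5* and *Gimap1* are the members named above because their loss in rodents depletes mature T cells. *Gimap5*, at chr6:48746197-48754210, had an RPKM of 43.1 in the control library and 35.5 in the Eomes library, a log2 ratio of -0.28. *Gimap1*, at chr6:48739054-48743795, was more abundant, with an RPKM of 106.0 and 94.2 and a log2 ratio of -0.17. Both were thus lower in the Eomes library, *Gimap5* further from its control value than *Gimap1*. Since *Gimap3* and *Gimap5* share sequence, they were also added up, which depends less on how reads were split between them. Their sum was an RPKM of 184.7 in the control library and 144.2 in the Eomes library, a log2 ratio of -0.36.

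*Gimap6*, which binds the autophagy protein Gabarapl2, and *Gimap7*, whose protein acts on GTP as a dimer, showed the smallest differences together with *Gimap8*. The RPKM of *Gimap6*, at chr6:48701582-48708225, was 68.1 in the control library and 68.0 in the Eomes library, a log2 ratio of -0.0013. *Gimap7*, at chr6:48718621-48724636, had an RPKM of 49.3 and 48.3, a log2 ratio of -0.029. *Gimap8*, at chr6:48647234-48660875, had the lowest level of the family (RPKM 12.4 and 12.7). It was the only member slightly higher in the Eomes library, at a log2 ratio of 0.038. *Gimap9*, at chr6:48676129-48679114, followed the larger group, with an RPKM of 33.45 in the control library and 28.0 in the Eomes library and a log2 ratio of -0.26.

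**Figure D1:**
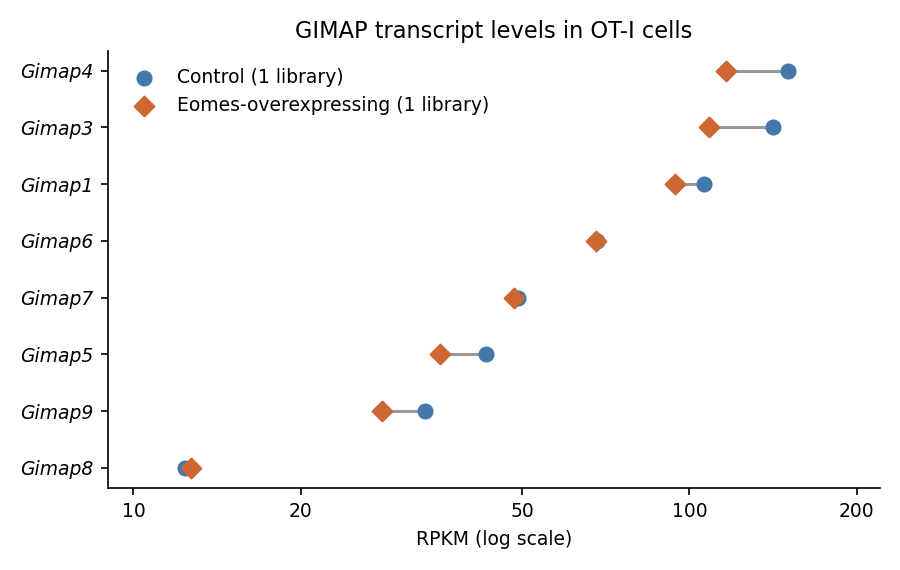
RPKM (log axis) of the 8 GIMAP genes in the control library (circles) and the Eomes-overexpressing library (diamonds), 1 library each, joined by a line per gene. *Gimap4*, *Gimap3*, *Gimap5* and *Gimap9* are visibly lower in the Eomes-overexpressing library, whereas the symbols of *Gimap6*, *Gimap7* and *Gimap8* nearly coincide.

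From the highest to the lowest, the order of levels was *Gimap4*, *Gimap3*, *Gimap1*, *Gimap6*, *Gimap7*, *Gimap5*, *Gimap9* and *Gimap8*, and the order was the same for all 8 in both libraries. RPKM is scaled to transcript length, so that levels can be set side by side across genes, but only roughly. GC content and shared sequence were not corrected for in this order. *Gimap4* exceeded *Gimap3* by 1.06-fold in control and 1.07-fold in Eomes-overexpressing cells, and with 1 library per group it cannot be said whether such neighbours differ. *Gimap9* exceeded *Gimap8*, the least abundant, by 2.70-fold and 2.21-fold. The distance from the most to the least abundant member was 12.2-fold in control and 9.14-fold in Eomes-overexpressing cells.

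Added up, the 8 members had an RPKM of 604.4 in the control library and 511.7 in the Eomes library, a log2 ratio of -0.24. *Gimap4* and *Gimap3* made up 24.9% and 23.4% of that sum in control and 22.7% and 21.2% in Eomes-overexpressing cells. The share of *Gimap6* was 11.3% and 13.3%, and that of *Gimap7* was 8.15% and 9.44%. Without *Gimap4* the sum had a log2 ratio of -0.20. A little less of the family's RNA was thus that of its 2 most abundant members in the Eomes-overexpressing library.

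Over the family, 7 of 8 members had a log2 ratio under 0, against 50.5% of the 9925 expressed genes. The count depends on the scale, since *Gimap6*, *Gimap7* and *Gimap8* lay close to 0. It was 5 when scaled to TPM, 6 when centred on the median of expressed genes and 8 with GC centring. The median was -0.21 for the members and -0.0037 for all expressed genes. A log2 ratio under -0.2 was found for 4 of 8 members, *Gimap3*, *Gimap4*, *Gimap5* and *Gimap9*, and for 20.3% of expressed genes. More than 1.5-fold lower were 0 of 8 members and 5.19% of expressed genes, and more than 1.5-fold higher were 0 of 8 and 2.46%. These counts describe 2 libraries and are no test, and neighbouring genes of 1 family are not independent of each other.

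To show how far genes of like abundance scattered between these libraries, each member was set beside the 500 expressed genes outside the family that were closest in mean RPKM. All 8 members lay inside the central 95% of their 500 genes. For *Gimap4*, that range ran from -0.50 to 0.33, and 5.20% of the 500 genes had a lower log2 ratio. For *Gimap3* 5.40% were lower, for *Gimap5* 7.60%, for *Gimap9* 9.80% and for *Gimap1* 15.4%. These 5 members lay below the 16th percentile of their genes. *Gimap7*, *Gimap8* and *Gimap6* lay in the middle, with 44.8%, 50.6% and 51.2% lower. The scatter between these libraries includes true differences as well as counting error, and no read depth was derived from the rounded RPKM values, so no counting interval is given.

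**Figure D2:**
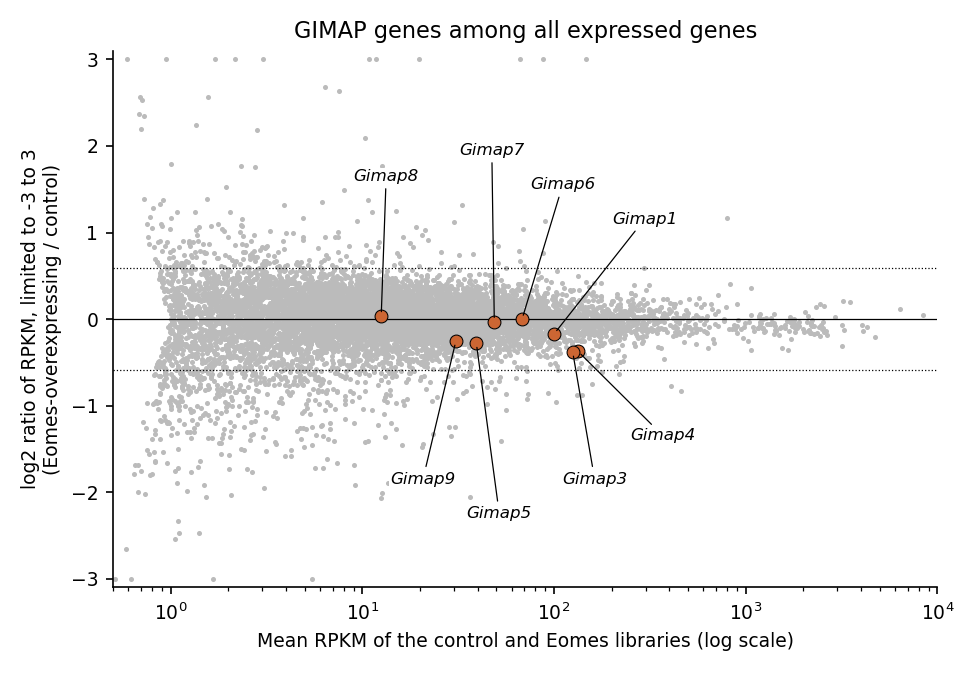
Log2 ratio of RPKM (Eomes-overexpressing over control) against mean RPKM of both libraries (log axis) for 9925 expressed genes (grey points, extreme values drawn at the edge) with the 8 GIMAP genes in colour, and dotted lines at 1.5-fold. The GIMAP genes lie at or below 0 apart from *Gimap8* at 0.038, and none reaches a dotted line.

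The members differ in the GC content of their transcripts, and the median log2 ratio of expressed genes was not the same at every GC content. The GC content of the longest coding transcript was lowest for *Gimap8* (41.3%), *Gimap9* (42.6%) and *Gimap4* (43.3%) and highest for *Gimap1* (57.9%). When the median log2 ratio of genes of like GC content was subtracted, *Gimap4* was at -0.57, *Gimap9* at -0.45 and *Gimap8* at -0.18, all lower than before. The log2 ratios of *Gimap3* and *Gimap5* became -0.34 and -0.24, and that of *Gimap1* became -0.083. On this scale all 8 members were under 0, and *Gimap4* came close to 1.5-fold lower, which lies 0.58 from 0 on the log2 scale. The direction of *Gimap8* thus turned with this step. *Gimap6* and *Gimap7* stayed within 0.1 of 0 on every scale tried.

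**Figure D3:**
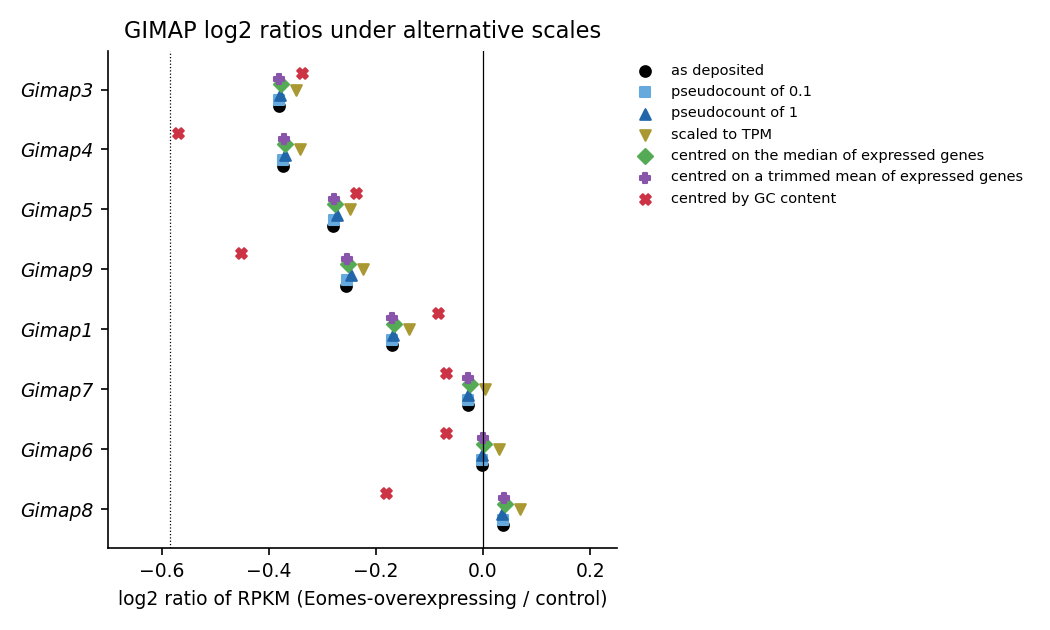
Log2 ratio of RPKM (Eomes-overexpressing over control) of each GIMAP gene as deposited and under 6 alternative scales, with a dotted line at 1.5-fold lower. Symbols of a gene lie close together except for centring by GC content (crosses), which moves *Gimap4*, *Gimap9* and *Gimap8* to the left.

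Genes next to the cluster were looked at to place the members in their locus. Of 47 other annotated genes within 500 kb on either side, 15 were listed and 8 were expressed, of which 6 had a log2 ratio under 0. *Tmem176b* and *Tmem176a*, a pair of genes for transmembrane proteins, lie 63.0 and 70.1 kb beyond *Gimap3*. *Tmem176b* had an RPKM of 9.64 in the control library and 4 in the Eomes library, a log2 ratio of -1.27, and *Tmem176a* an RPKM of 5.43 and 2.96, a log2 ratio of -0.88. Both were more than 1.5-fold lower, unlike any GIMAP gene. On the side of *Gimap8*, the zinc finger genes *Zfp775* and *Repin1* lie 24.0 and 48.2 kb away. *Zfp775* had a log2 ratio of -0.43 (RPKM 3.17 and 2.35) and *Repin1* of -0.53 (RPKM 11.9 and 8.22). *Lrrc61*, 76.5 kb away, had a log2 ratio of -0.19 (RPKM 4 and 3.51). All 5 expressed genes within 250 kb were therefore lower in the Eomes-overexpressing library. Of all expressed genes, 50.5% had a log2 ratio under 0 and 5.19% were more than 1.5-fold lower. The 5 genes are few, none was above an RPKM of 11.9, and *Tmem176b* and *Tmem176a* are neighbours, so the count is only a description.

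Further from the cluster the direction varied. *Malsu1*, a gene for assembly of the mitochondrial ribosome, had a log2 ratio of -0.025 (RPKM 22.6 and 22.2). *Tra2a*, which encodes a splicing factor, was higher at 0.22 (RPKM 58.9 and 68.7). *Igf2bp3*, which encodes an RNA-binding protein, was more than 1.5-fold higher, with an RPKM of 3.93 and 5.93 and a log2 ratio of 0.59. For all 8 flanking genes together, the middle of the log2 ratios was -0.31. Only *Malsu1* and *Tra2a* had a higher RPKM than *Gimap8* in either library, and log2 ratios of genes at low RPKM scattered more: the central 95% of the 500 genes nearest to *Gimap8* began at -0.70, against -0.50 for *Gimap4*.

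**Figure D4:**
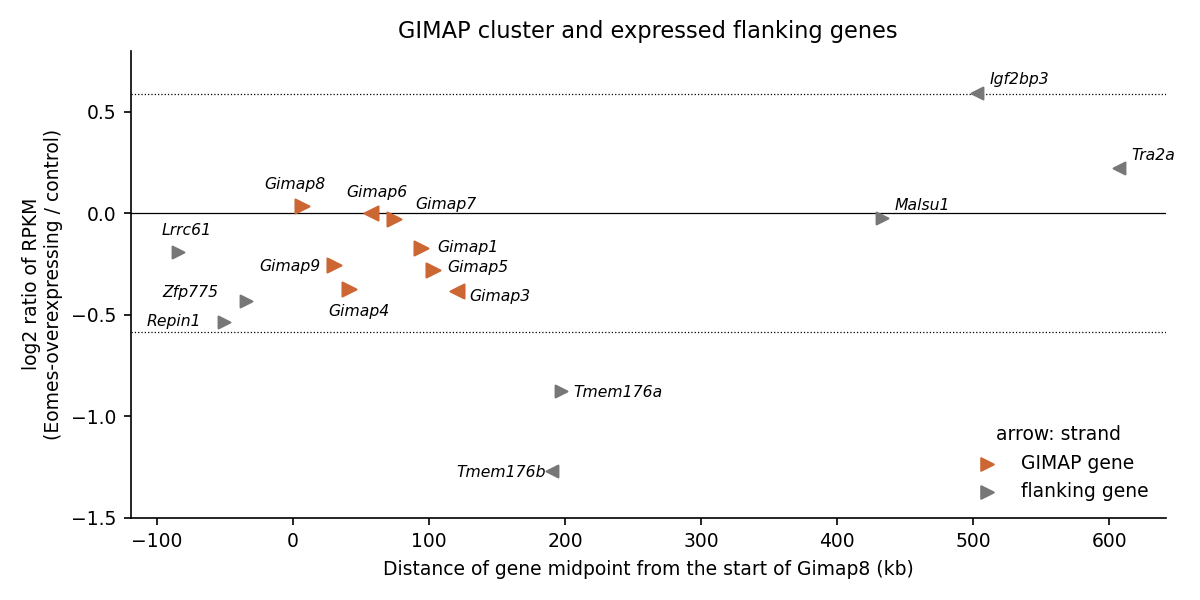
Log2 ratio of RPKM (Eomes-overexpressing over control) of the 8 GIMAP genes (colour) and the 8 expressed flanking genes (grey) against the distance of the gene's midpoint from the start of *Gimap8* in kb, with arrows for the strand and dotted lines at 1.5-fold. *Tmem176b* at -1.27 and *Tmem176a* at -0.88 lie below the GIMAP genes, and *Igf2bp3* at 0.59 lies just above the upper line.

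Since Eomes is a T-box factor, the 250 bases before the annotated start of each member were searched for short cores of binding motifs on both strands. RefSeq (GRCm38.p6) gave 9 such windows for the 8 members, of which 2 overlapping ones were for *Gimap8*. The T-box core GGTGTGA was found for *Gimap8* only, on the minus strand 22 bases before the first of its starts, and occurred in 3.33% of all 32851 windows. The forkhead core GTAAACA was found for *Gimap3* (3.17% of all windows), and the ETS core CGGAAG for *Gimap1*, *Gimap6* and *Gimap8* (13.6%). The RUNX core TGTGGTT (4.40% of all windows) and the KLF core GGGTGTG (6.93%), which can overlap the T-box core, were found in none of the 9. Shown is the first window of *Gimap8*, the member with the T-box core and the highest log2 ratio as deposited. The ETS core of *Gimap8* lies only in its other window, which is not shown. Also shown are the windows of *Gimap4* and *Gimap3*, the members with the lowest log2 ratios as deposited. With GC centring *Gimap7* was the highest, and *Gimap4* and *Gimap9* were the lowest. Capitals mark matches, and *Gimap4* has none.
Gimap8, chr6:48646984-48647233, plus strand: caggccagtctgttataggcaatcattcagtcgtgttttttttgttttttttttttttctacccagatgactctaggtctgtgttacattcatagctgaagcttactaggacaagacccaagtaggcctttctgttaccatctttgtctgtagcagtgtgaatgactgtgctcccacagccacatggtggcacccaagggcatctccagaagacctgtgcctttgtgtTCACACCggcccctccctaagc
Gimap4, chr6:48684328-48684577, plus strand: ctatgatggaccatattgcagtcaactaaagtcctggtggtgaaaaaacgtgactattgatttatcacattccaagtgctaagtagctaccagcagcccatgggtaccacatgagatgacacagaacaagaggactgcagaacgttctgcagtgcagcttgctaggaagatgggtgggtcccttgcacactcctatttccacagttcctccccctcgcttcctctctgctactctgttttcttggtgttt
Gimap3, chr6:48770852-48771101, minus strand: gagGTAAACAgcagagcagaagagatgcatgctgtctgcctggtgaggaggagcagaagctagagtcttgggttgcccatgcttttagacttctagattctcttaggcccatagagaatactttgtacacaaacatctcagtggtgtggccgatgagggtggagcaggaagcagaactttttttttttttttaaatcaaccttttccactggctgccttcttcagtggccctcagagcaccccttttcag

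A match is a description of these letters, and Eomes binding was not analysed here. The windows shown were picked by their match or log2 ratio, and no tie between match and ratio was tested. Only exact letters within 250 bases were searched, whereas the paper placed most Eomes binding in introns or between genes. The letters in capitals are TCACACC, the T-box core read on the other strand, for *Gimap8* and the forkhead core for *Gimap3*.

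Genes tied to GIMAP function or to resting T cells were then described by lists. GIMAP proteins have been linked to the Bcl-2 family and to the kinase Gsk3b. Of 9 survival genes, all expressed, 5 had a log2 ratio under 0, 0 were past 1.5-fold and the median was -0.11, or -0.019 with GC centring. *Bax*, a death effector, had an RPKM of 310.3 in the control library and 271.9 in the Eomes library (log2 ratio -0.19), and its relative *Bak1* had 126.2 and 129.7 (0.039). The log2 ratios of the list ran from -0.41 for *Bcl2l11*, which promotes death (RPKM 10.7 and 8.05), to 0.16 for *Bcl2*, which protects from it (RPKM 20.7 and 23.1), both named after their values were seen. Among 12 autophagy genes, all expressed, 8 had a log2 ratio under 0, and the median was -0.041. For both lists, the shares over all expressed genes were 50.5% under 0, 7.65% past 1.5-fold in either direction and 5.19% more than 1.5-fold lower. *Map1lc3a*, which encodes a protein of the autophagosome membrane, was more than 1.5-fold lower, at -0.60 (RPKM 5.72 and 3.78), or -0.51 and within 1.5-fold with GC centring. *Gabarapl2*, the partner of *Gimap6*, was at 0.020 (RPKM 50.9 and 51.6), and its relatives *Gabarapl1* and *Gabarap* were at -0.36 and -0.27, all 3 also named after their values were seen.

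Of 24 genes of quiescent and naive T cells, 21 were expressed, of which 16 had a log2 ratio under 0, 5 were more than 1.5-fold lower and 0 higher, with a median of -0.28. The share of 5 among 21 stands beside 5.19% of all expressed genes. Of all expressed genes, 50.5% were under 0 and 2.46% were more than 1.5-fold higher. Among these 5 were *Igfbp4* (log2 ratio -1.56), *S1pr1*, which lets T cells leave lymph nodes (-1.19), *Slfn2*, a gene of T cell quiescence (-0.86), and *Pik3ip1*, which encodes an inhibitor of PI3K (-0.62). The RPKM of *Slfn2* was 43.2 in the control library and 23.9 in the Eomes library, whereas *Igfbp4*, *S1pr1* and *Pik3ip1* were under 4 in both libraries. With a minimum RPKM of 5, the number more than 1.5-fold lower was 1, *Slfn2*, and the median was -0.19.

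All 11 T cell markers were lower in the Eomes library, with log2 ratios under 0, from -0.93 to -0.053 and a median of -0.25, and their summed RPKM was 3018 in the control library and 2499 in the Eomes library. More than 1.5-fold lower were 3 of 11, namely *Cd5*, *Cd8a* and *Cd2*, against 5.19% of all expressed genes, of which 50.5% were under 0. The part of this difference in the GIMAP values was not tested.

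Interferon-inducible GTPases, another set of GTP-binding proteins of immune cells, were spread more widely than the GIMAP genes. Of 19 genes 14 were expressed, and the median was -0.20. A log2 ratio under 0 was found for 10 of them (50.5% of all expressed genes). More than 1.5-fold lower were 2 (5.19% of all expressed genes), and more than 1.5-fold higher were 0 (2.46%). The median was -0.092 with a minimum RPKM of 5, and with GC centring 3 genes were more than 1.5-fold lower. *Gbp2* had a log2 ratio of -1.35 (RPKM 8.97 and 3.52) and *Tgtp1* of -1.26 (RPKM 6.64 and 2.78), while *Gbp4* was the highest at 0.49 (RPKM 8.46 and 11.9). Reads of *Tgtp1* may be split with its near copy *Tgtp2*, which was at -0.54. The range over the list was thus -1.35 to 0.49, against -0.38 to 0.038 for the GIMAP genes. The lists differ in size and in level, and log2 ratios scattered more at low RPKM. Apart from *Igtp* (RPKM 79.8 and 54.2), no expressed gene of this list was above an RPKM of 13.3. GIMAP genes ran from 12.4 to 150.45. Whether the wider range goes beyond these differences was not tested.

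**Figure D5:**
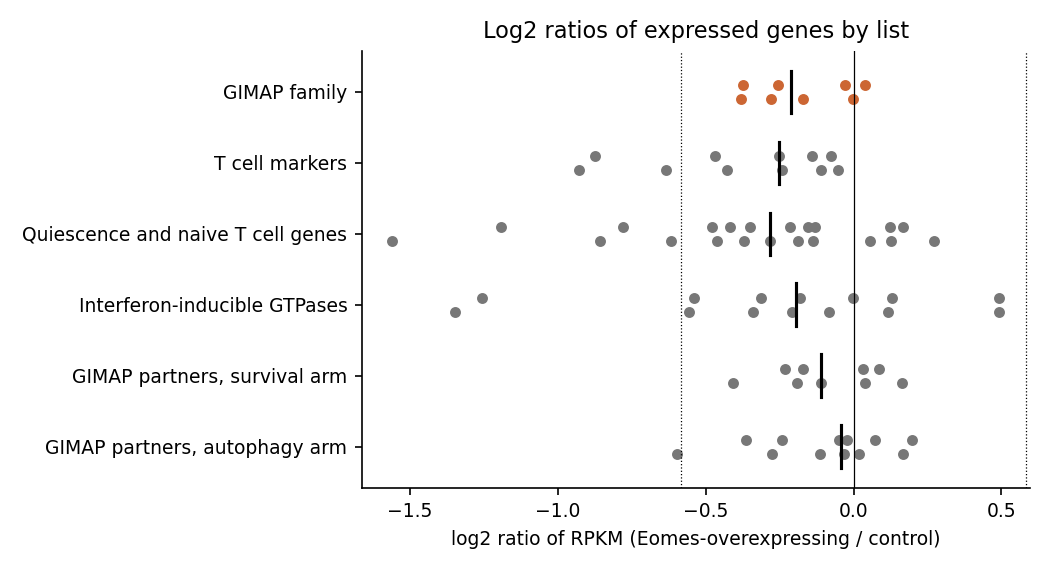
Log2 ratio of RPKM (Eomes-overexpressing over control) of the expressed genes of 6 lists, 1 point per gene, with the median of each list as a black bar and dotted lines at 1.5-fold. GIMAP genes lie between -0.38 and 0.038, and all 11 T cell markers lie under 0.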

How the data were processed

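Total RNA of 2 cultures was sequenced as 1 library each. Per the labels and the study's methods, the authors filtered reads with SOAPnuke, mapped them to mm10 with HISAT (HISAT2 in the notes) and Bowtie2 and computed expression with RSEM. The authors deposited FPKM values (RPKM in their methods) with 2 decimals, listed from 0.01 upward. Normalization between libraries, annotation and versions are not given in the sources used here, and no depth was derived from the rounded values. Symbols turned into dates (20 and 19) were left out, and with them all 8 septin genes of a list.

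Log2 ratios were computed with Python 3.11.15, numpy 2.4.6 and pandas 2.3.3, with values under 0.01 or not listed set to 0.01, and plotted with matplotlib 3.10.9. Genes reaching an RPKM of 1 in either library were called expressed, with 1.5-fold as the threshold. GENCODE vM21 gave positions, transcripts and GC content, which 99.1% of expressed genes had. GC centring used 20 bins. Coding sequences were aligned with biopython 1.88. The code of the ratio steps was checked on simulated data without noise, which says nothing about the scatter between libraries. Members and lists were chosen with earlier results of these data known. Named genes are all members, expressed genes within 500 kb of the cluster, and of each list the genes past 1.5-fold or, where there were none, the 2 with the highest mean. Some genes of the lists are counted but not reported here by name.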

Additional observations from a re-analysis of the deposited data

How the results depend on the processing

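No member of the GIMAP family was past 1.5-fold under any alternative tried: pseudocounts of 0.1 and 1, scaling to TPM, and centring on the median, on a trimmed mean or by GC content. Leaving out the minimum RPKM, raising it to 5 or using 2-fold could not change the members' counts, since all members lie above 5 and none was past 1.5-fold. The family median stayed between -0.21 and -0.18. TPM and the other centrings shift all genes alike by at most 0.032, and pseudocounts barely act at these levels, so only GC centring could move a member far. It moved 3 of 8 by more than 0.19, which is the distance from the middle to the edge of the 16th to 84th percentile range of log2 ratios at like levels: *Gimap4* to -0.57, *Gimap9* to -0.45 and *Gimap8* to -0.18. The signs of *Gimap6* and *Gimap7*, close to 0, turned with scaling to TPM (0.031 and 0.0032), and that of *Gimap6* also with centring on the median (0.0024). With a window of 250 kb the median of the flanking genes was -0.53. With GC centring the number of autophagy genes more than 1.5-fold lower was 0 instead of 1, and with a minimum RPKM of 5 the number of quiescence genes was 1 instead of 5, since the other 4 lay below it. Without replicates and with no depth derived, differences of this size cannot be told from the scatter between libraries. No paired analysis was possible because each group has 1 library.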
